A study of Mus musculus with 16 samples.

Results

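The 10 genes described here form the core of the circadian clock: the activators Arntl (which encodes BMAL1) and Clock, the repressors Per1, Per2, Per3, Cry1 and Cry2, the nuclear receptor repressors Nr1d1 and Nr1d2 (REV-ERBα and REV-ERBβ), and the output factor Dbp. They were chosen by name from the 43346 genes of the deposited table, and all 10 were measured and tested. RNA was sequenced from ECs (endothelial cells, the inner lining of blood vessels) of the lung in 16 libraries. The mice were of the FVB strain, aged 2 months in the Young groups and 18 months in the Aged groups. All of them carried a transgene that marks cells expressing the collagen gene Col1a1 with GFP. Bleo mice received bleomycin, a drug that injures the lung and leads to fibrosis, by the airway, and Sham mice received the carrier. Lungs were taken about a month after delivery, in what the paper calls the early resolution phase of the fibrosis. There were 5 Young Sham and 4 Young Bleo libraries, and 3 Aged Sham and 4 Aged Bleo libraries. The sort kept CD31+ cells and removed cells carrying CD45, EpCAM or GFP. Both sexes were used, and the sex and the hour of harvest of each mouse are not given in the sources used here.

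In the clock, BMAL1 and CLOCK bind together to E-boxes in DNA and switch on the Per and Cry genes, whose proteins return to shut the pair down, so that transcripts rise and fall over a day. In a second loop the same pair switches on Nr1d1 and Nr1d2, whose products repress Arntl at the RORE sites that ROR factors activate. Dbp is switched on directly through E-boxes and its protein activates further genes at D-boxes, so Dbp and Nr1d1 RNA peak at a time of day when Arntl RNA is low. ECs are known to carry a working clock. A single time point therefore reads the phase of each mouse as well as the level of each gene.

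Dbp and Nr1d1 rose after bleomycin in young mice, and DESeq2 also called both higher in ECs of Aged Bleo mice than in those of Young Sham mice, of which edgeR called Dbp but not Nr1d1. Against Young Sham, mean Dbp was 6.87 times as high in Young Bleo, 3.34 times in Aged Bleo and 2.35 times in Aged Sham. Mean Nr1d1 was 2.81, 1.93 and 1.83 times as high in the same order. Arntl, Clock, Per2, Cry1 and Cry2 passed the test in none of the comparisons, and Per1, Per3 and Nr1d2 passed in none either, although Per1 did not overlap between the 2 bleomycin groups. Levels are DESeq2-normalized counts (read counts divided by a library size factor) unless FPKM is named, and a gene was called when its DESeq2 Wald adjusted p was at most 0.05 and its log2 fold change at least 0.5 in size.

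**Figure D1:**
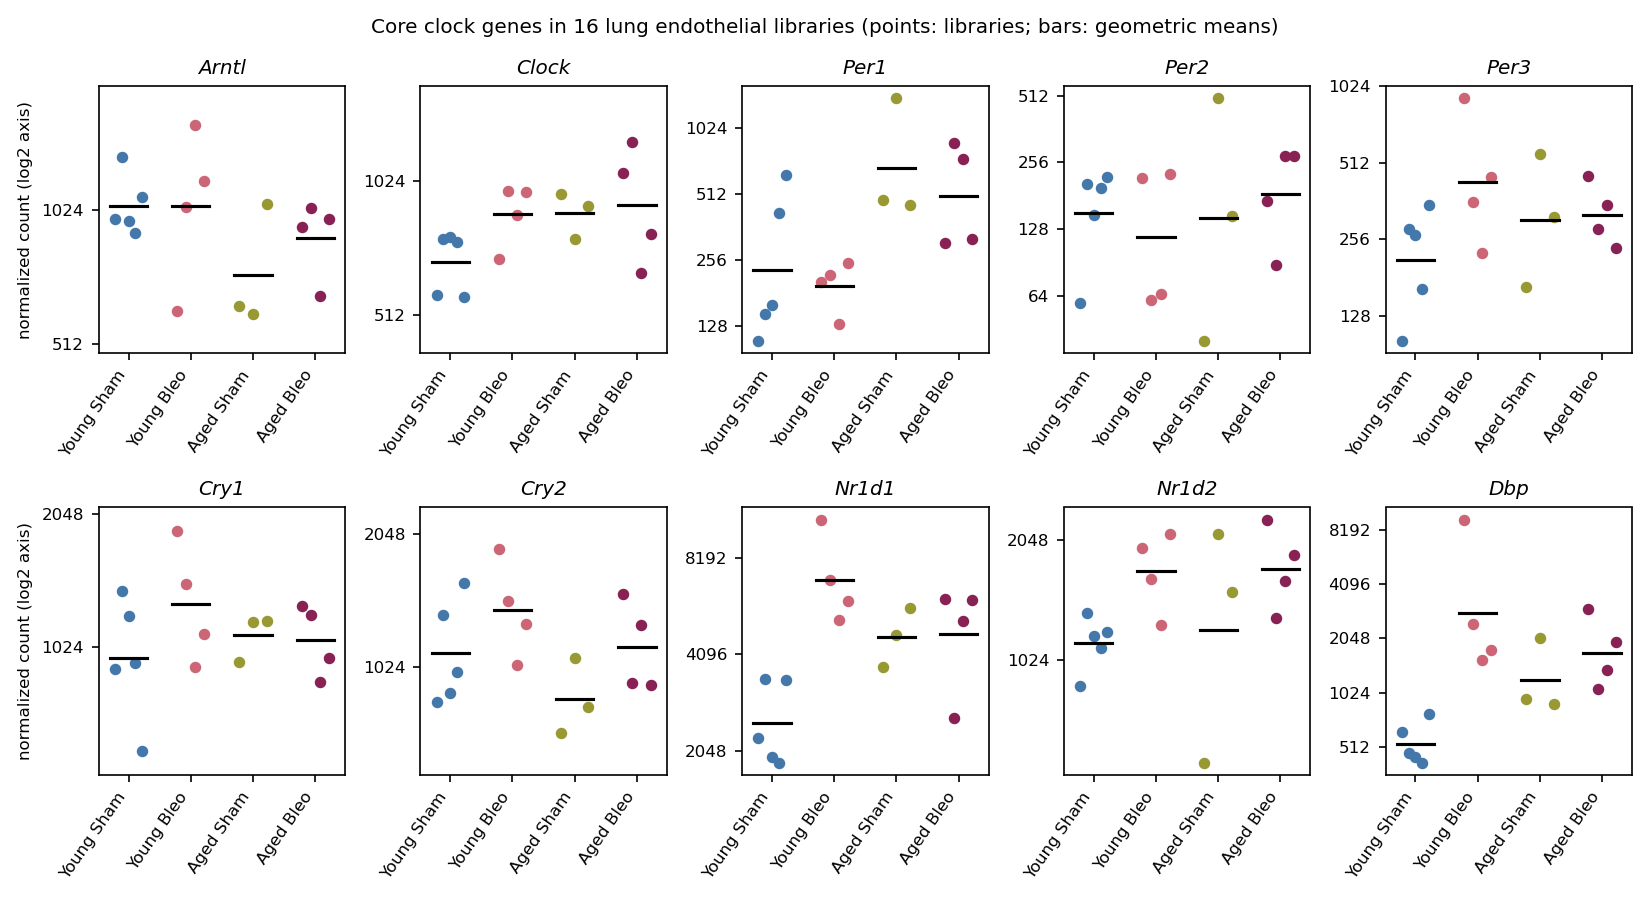
Normalized count of each of the 10 clock genes (log2 axis) in the 16 libraries by group, with points for libraries and bars for geometric means. The 5 Young Sham libraries lie below all other libraries for Dbp and below all Young Bleo and Aged Sham libraries for Nr1d1, whereas the groups overlap for Arntl.

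The promoter stretches of the 2 genes that moved are shown as a description, and sites farther from the start were not searched. RefSeq promoter windows on build GRCm38.p6, which is mm10, reach from 250 bases before to 50 bases after each start, and 9 of the 10 genes had one (Per2 had none in the table). For Dbp, the stretch that lies before the gene's start in the deposited table is chr7:45704997-45705087, plus strand. For Nr1d1, the 250 bases before the RefSeq start are shown, chr11:98775378-98775627, minus strand, with a match to the E-prime box in capitals.
Dbp: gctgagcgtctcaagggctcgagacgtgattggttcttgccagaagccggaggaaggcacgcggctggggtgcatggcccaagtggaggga
Nr1d1: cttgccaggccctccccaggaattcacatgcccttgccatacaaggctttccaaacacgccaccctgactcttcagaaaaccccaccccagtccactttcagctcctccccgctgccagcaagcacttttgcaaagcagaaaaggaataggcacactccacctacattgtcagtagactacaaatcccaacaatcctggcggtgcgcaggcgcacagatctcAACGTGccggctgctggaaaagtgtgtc

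The motifs searched, each on both strands of the whole window, were the E-box CACGTG (found in 7.15% of all 32851 windows), the E-prime box CACGTT (4.68%), the D-box as TTATGTAA or TTACGTAA (1.06%), the RORE half-site TAGGTCA (2.61%) and the CRE TGACGTCA (1.79%). None of the motifs overlaps another in the stretches shown. Among the 10 genes, Per1 and Cry1 held an E-box, Cry1, Cry2 and Nr1d1 an E-prime box, Per3 a pair of D-boxes and Arntl a RORE half-site, whereas Clock, Nr1d2 and Dbp held none of these letters in this window. A match is a description of the sequence and not evidence of binding.

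The matches in the clock genes are given with the motif in capitals, 5′ to 3′ on the strand of the gene. The Per1 stretch lies at chr11:69098771-69098800 (plus strand, first base of the motif 166 bases before 1 of its 2 RefSeq starts, at 69098949, which is inside the gene as the deposited table gives it, from 69095217), the Cry1 stretches at chr10:85185097-85185126 and, overlapping it, chr10:85185116-85185145 (minus strand, 60 and 79 before) and the Per3 stretches at chr4:151044853-151044882 and chr4:151044806-151044835 (minus strand, 205 and 158 before). The Cry2 stretch lies at chr2:92434218-92434247 (minus strand, 166 before), and the Arntl stretch at chr7:113207529-113207558 (plus strand, 30 bases past 1 of its 2 RefSeq starts).
Per1 E-box: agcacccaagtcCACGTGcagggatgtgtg
Cry1 E-box: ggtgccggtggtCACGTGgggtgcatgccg
Cry1 E-prime box: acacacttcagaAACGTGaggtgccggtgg
Cry2 E-prime box: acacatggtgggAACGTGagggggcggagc
Per3 first D-box: ccgacccgcgcgTTATGTAAggtactcggg
Per3 second D-box: acccgcccgcggTTATGTAAcccccgccgt
Arntl RORE half-site: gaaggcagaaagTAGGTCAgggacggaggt

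Sequencing depth ran from 20907113 to 71035301 counts per library, and 15092 to 17259 genes had at least 10 counts. Every pair of replicates differed beyond sampling noise, so each library counted as 1 sample. The RNA came from lungs also used for a chromatin assay in which each point was an individual mouse. Per length, as FPKM averaged over the 16 libraries, Nr1d1 was the most abundant of the 10 at 15.2, followed by Dbp at 6.08, Cry1 at 3.64, Arntl at 3.30, Nr1d2 at 2.95, Cry2 at 1.81, Clock at 1.08, Per1 at 0.724, Per3 at 0.349 and Per2 at 0.301. From the lowest to the highest library, FPKM spanned 23.7-fold for Dbp, 13.2-fold for Per2, 11.6-fold for Per1 and 2.12-fold for Clock.

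The sorted cells carried endothelial markers in every library, and the amounts of markers of other cells differed between groups. The summed normalized count of 6 endothelial markers (Pecam1, Cdh5, Kdr, Tek, Erg and Cldn5) was 443768 to 480590.0 in Young Sham, 224223 to 355862 in Young Bleo, 230373 to 372372 in Aged Bleo and 381543 to 421583 in Aged Sham. The sum of 6 leukocyte markers was 3010.4 to 5087 in Young Sham, 17518 to 53479 in Young Bleo, 25364 to 170806 in Aged Bleo and 7443 to 22935 in Aged Sham. The sum of 4 macrophage markers (Adgre1, Siglecf, Mmp12 and Marco) was 0 to 98.8, 166 to 13469, 1389 to 7649 and 18.0 to 126 in the same order. The sum of the mesothelial markers Msln, Upk3b and Wt1 was 0.978 to 231 in Young Sham, 1035 to 3279 in Young Bleo, 77.4 to 1163 in Aged Bleo and 701 to 2516 in Aged Sham. It thus lay above Young Sham in all other libraries but Aged Bleo 2, which was also the lowest Aged Bleo library for Dbp (1072) and Nr1d1 (2596), and Young Bleo 17 was the highest of all for it, as for both genes. The sum of 5 fibroblast and mural markers was 8036 to 17854 in Young Sham, 5310.1 to 8600.2 in Young Bleo, 3279.8 to 4516 in Aged Bleo and 5391 to 9685 in Aged Sham. Its members did not move together: Pdgfrb was below Young Sham in all other libraries, whereas Pdgfra was at 582 to 1295 in Aged Sham against 21.1 to 290 in Young Sham, and Col1a1 overlapped between Young Sham and each other group. The sum of 5 epithelial markers overlapped between all groups. Wt1 was at 0 in all 5 Young Sham libraries, and no other marker was at 0 throughout a group. In bulk samples, fewer cells of a type and less RNA per cell cannot be told apart, and the part of these other cells in the clock gene results was not tested.

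The first comparison asked how the clock genes of young ECs differed after bleomycin. Of the 10 genes, 2 were called, both higher (DESeq2), in a comparison where 13.9% of all 18515 tested genes were called (9.78% by edgeR, which called the same 2) and 7.57% were called higher. Their median log2 fold change was 0.38, against 0.01 for all genes tested, and 8 of the 10 were positive.

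Dbp, a PAR bZIP transcription factor of the clock's output, was at 620.3, 474, 451, 421 and 786 in Young Sham libraries 21 to 25. It was at 9319.6, 2473, 1558 and 1770.4 in Young Bleo libraries 17 to 20. Every Young Bleo library lay above every Young Sham library, and library 17 stood far above the other 3. Dbp rose by 2.78 ± 0.46 on the log2 scale (SE; 95% interval 1.87 to 3.69; DESeq2 adjusted p = 3.1e-07), and edgeR's quasi-likelihood test gave an adjusted p of 0.0037. Without library 17 the log2 fold change was 1.81, the lowest value over all 16 fits that each left out 1 library, and Dbp was called in each of them and under all 8 other settings.

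Nr1d1, which encodes the receptor that represses Arntl, was at 2248, 3429, 1958, 1879 and 3404 in Young Sham libraries 21 to 25. It was at 10825, 7005, 5231 and 6011 in Young Bleo libraries 17 to 20. The groups did not overlap, and library 17 was again the highest. Nr1d1 rose by 1.49 ± 0.29 on the log2 scale (SE; 95% interval 0.93 to 2.05; DESeq2 adjusted p = 1.21e-05; edgeR adjusted p = 0.00459), and it was called without any 1 library and under all 8 other settings. Groups that do not overlap with the treated group higher were found in 7.62% of the genes tested.

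The paralogue Nr1d2 was at 883, 1345, 1175, 1101 and 1204 in Young Sham libraries 21 to 25 and at 1961, 1633, 1254 and 2122 in Young Bleo libraries 17 to 20. Only library 19 lay within the range of Young Sham. Nr1d2 had a log2 fold change of 0.61 ± 0.29 (SE, DESeq2 adjusted p = 0.155), and it passed when only the compared groups entered the model (DESeq2 adjusted p = 0.00908) or when Aged Sham 13 was left out (DESeq2 adjusted p = 0.0217).

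Per3, a period gene whose product is not required for rhythm in the way that PER1 and PER2 are, was at 102, 280.1, 267, 163 and 350.0 in Young Sham and at 919, 359, 227 and 452 in Young Bleo, in the same library order. Library 19 lay within the Young Sham range and library 17 was the highest of all 16. The log2 fold change was 1.08 ± 0.44 (SE; DESeq2 adjusted p = 0.074), and it passed without Young Sham 25, without Young Bleo 19 or without Aged Sham 13 (DESeq2 adjusted p = 0.0409, 0.0318 and 0.0485). Without Young Bleo 17 it was 0.58 (DESeq2 adjusted p = 0.459).

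The remaining 6 genes differed by less between the young groups. Their log2 fold changes were 0.07 ± 0.26 for Arntl, 0.36 ± 0.21 for Clock, -0.54 ± 0.51 for Per1, -0.22 ± 0.60 for Per2, 0.40 ± 0.25 for Cry1 and 0.31 ± 0.24 for Cry2 (SE). Their DESeq2 adjusted p-values ran from 0.263 for Clock to 0.918 for Arntl. The 95% interval was -0.45 to 0.58 for Arntl, and -1.40 to 0.97 for Per2.

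**Figure D2:**
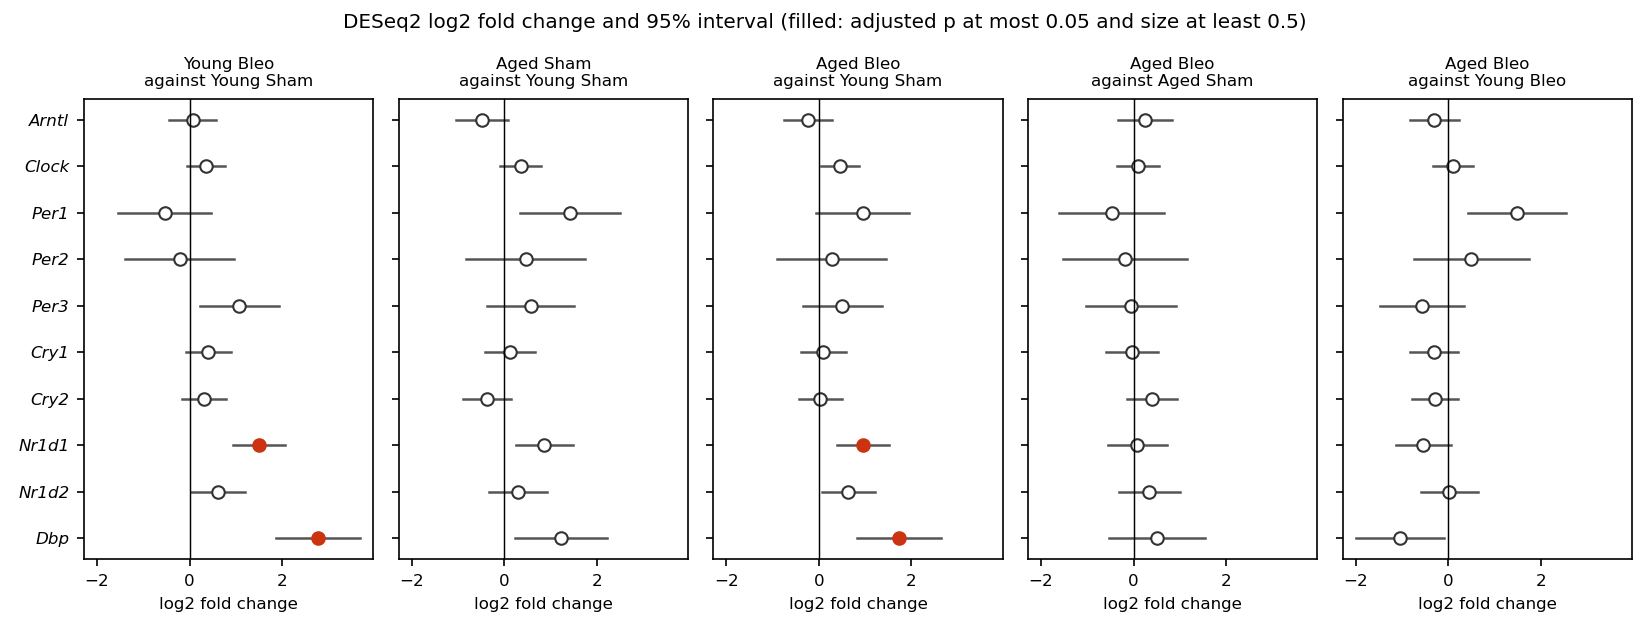
DESeq2 log2 fold change with its 95% interval for each of the 10 clock genes in the 5 pairwise comparisons, with filled points for called genes. Dbp and Nr1d1 are filled in both comparisons of bleomycin libraries with Young Sham, and no point is filled in the other 3 comparisons.

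The second comparison asked how aged ECs differed from young ECs without injury. None of the 10 genes was called in Aged Sham against Young Sham by DESeq2 or by edgeR, against 3.36% of all genes tested by DESeq2 and 0.862% by edgeR, and 3 of them (Per1, Nr1d1 and Dbp) had an unadjusted p under 0.05 by either tool, as did 14.5% of all genes tested by DESeq2. Dbp was at 949, 2048 and 886 in Aged Sham libraries 13 to 15, all above the 786 of the highest Young Sham library, and its log2 fold change was 1.23 ± 0.51 (SE; 95% interval 0.24 to 2.23; DESeq2 adjusted p = 0.186). Nr1d1 was at 3743, 4708 and 5714, again all above Young Sham, and differed by 0.87 ± 0.31 on the log2 scale (SE, DESeq2 adjusted p = 0.102). Groups that do not overlap with Aged Sham higher were found in 4.95% of the genes tested.

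Whether these 2 genes were called with age depended on the fit. Fitted on Aged Sham and Young Sham libraries alone, both were called, with DESeq2 adjusted p-values of 0.00708 for Dbp and 0.0219 for Nr1d1 and nearly the same log2 fold changes (1.23 and 0.87). Dbp was also called when Young Bleo 17 was left out (DESeq2 adjusted p = 0.0222), and Nr1d1 when Aged Bleo 2 was left out (DESeq2 adjusted p = 0.0348), although neither library enters the difference itself. No other setting and no other fit that left out 1 library called either gene. Without Aged Sham 14 the log2 fold change of Dbp was 0.74 (DESeq2 adjusted p = 0.602). Without Aged Sham 15 that of Nr1d1 was 0.71 (DESeq2 adjusted p = 0.284).

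Per1, the period gene that also responds quickly to glucocorticoids and to other acute signals, was at 109.5, 145, 159.9, 419 and 625 in Young Sham libraries 21 to 25. It was at 479.6, 1404 and 458 in Aged Sham libraries 13 to 15. Young Sham 25 lay above 2 of the 3 Aged Sham libraries, and the log2 fold change was 1.42 ± 0.55 (SE; 95% interval 0.33 to 2.51; DESeq2 adjusted p = 0.152). Without Young Sham 25 it was 1.91 (DESeq2 adjusted p = 0.0172). Without Aged Sham 14 it was 0.68 (DESeq2 adjusted p = 0.661).

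Arntl was at 977, 1349, 972, 909 and 1097 in Young Sham libraries 21 to 25 and at 623, 598 and 1056 in Aged Sham libraries 13 to 15. Aged Sham 15 lay within the Young Sham range and the other two lay below it, with a log2 fold change of -0.48 ± 0.28 (SE, DESeq2 adjusted p = 0.443). Clock was at 560.2 to 767 in Young Sham and at 759 to 959 in Aged Sham. The remaining log2 fold changes were 0.36 ± 0.23 for Clock, 0.47 ± 0.66 for Per2, 0.57 ± 0.48 for Per3, 0.13 ± 0.27 for Cry1, -0.37 ± 0.26 for Cry2 and 0.30 ± 0.32 for Nr1d2 (SE), with DESeq2 adjusted p-values of 0.475 or more.

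A further comparison set Aged Bleo against the same 5 Young Sham libraries, which it shares with the previous comparisons. Again 2 of the 10 genes were called higher by DESeq2, against 9.73% of genes called and 6.58% called higher over all genes tested. With edgeR 1 of the 10, Dbp, was called, against 5.69% of all genes. Groups that do not overlap with Aged Bleo higher were found in 5.82% of the genes tested, and among the 10 in Dbp alone. Dbp was at 2969.9, 1072, 1362 and 1949 in Aged Bleo libraries 1, 2, 3 and 5, and thus all above Young Sham. This was a difference of 1.74 ± 0.46 on the log2 scale (SE; 95% interval 0.83 to 2.65; DESeq2 adjusted p = 0.00388; edgeR adjusted p = 0.0402). It was not called without Aged Bleo 1 (log2 fold change 1.41, DESeq2 adjusted p = 0.0615).

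Nr1d1 was at 6094, 2596, 5215 and 6085 in the same Aged Bleo libraries. Library 2 lay within the Young Sham range of 1879 to 3429 and the other 3 above it. The log2 fold change was 0.95 ± 0.29 (SE; 95% interval 0.39 to 1.51; DESeq2 adjusted p = 0.0133), but edgeR did not call it (adjusted p = 0.0512), and it was lost in 5 of the 8 other settings and without Young Sham 24, Aged Bleo 1 or Aged Bleo 5 (highest DESeq2 adjusted p = 0.0894).

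Nr1d2 was at 2304, 1302, 1613 and 1883 in Aged Bleo, of which library 2 alone lay within the range of the young controls, with a log2 fold change of 0.64 ± 0.29 (SE, DESeq2 adjusted p = 0.160), and it passed with the compared groups alone (DESeq2 adjusted p = 0.0152) or without Aged Sham 13 (DESeq2 adjusted p = 0.0222). Clock was at 1069, 1254, 634 and 778, with a log2 fold change of 0.46 ± 0.21 (SE, DESeq2 adjusted p = 0.144), and it passed without Aged Bleo 3 (0.61, DESeq2 adjusted p = 0.022). Per1 was at 307, 880.0, 739.7 and 319, with a log2 fold change of 0.94 ± 0.51 (SE, DESeq2 adjusted p = 0.255), and it passed without Young Sham 25 (1.43, DESeq2 adjusted p = 0.0414). Arntl, Per2, Per3, Cry1 and Cry2 had log2 fold changes of -0.23 ± 0.26, 0.28 ± 0.60, 0.51 ± 0.44, 0.10 ± 0.25 and 0.03 ± 0.24 (SE), and the DESeq2 adjusted p-value was 0.546 or more for each.

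Within aged mice, bleomycin moved none of the 10 genes past the test. In Aged Bleo against Aged Sham, 0 were called by DESeq2 or edgeR, against 5.85% of all genes called by DESeq2 and 0.797% by edgeR. An unadjusted p under 0.05 was found for 0 of the 10 by either tool and for 19.0% of all genes tested by DESeq2. The log2 fold change of Dbp was 0.51 ± 0.53 (SE; 95% interval -0.53 to 1.54; 0.17 without Aged Bleo 1 and 1.00 without Aged Sham 14) and that of Nr1d1 was 0.08 ± 0.33 (SE; 95% interval -0.56 to 0.72). The others were 0.25 ± 0.30 for Arntl, 0.099 ± 0.23 for Clock, -0.48 ± 0.58 for Per1, -0.19 ± 0.68 for Per2, -0.060 ± 0.50 for Per3, -0.030 ± 0.28 for Cry1, 0.40 ± 0.27 for Cry2 and 0.34 ± 0.34 for Nr1d2 (SE), with DESeq2 adjusted p-values from 0.463 to 0.975.

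The bleomycin responses of aged and young mice were also compared directly, as a difference of differences. For Dbp this difference was -2.27 ± 0.70 (SE; 95% interval -3.65 to -0.90; DESeq2 adjusted p = 0.153), and for Nr1d1 it was -1.41 ± 0.43 (SE; 95% interval -2.26 to -0.56; DESeq2 adjusted p = 0.151). Both had an unadjusted p under 0.05 with DESeq2 and with edgeR, as the only ones of the 10 and as did 7.79% of all genes tested by DESeq2, and none of the 10 was called by either tool, against 0.378% of all genes by DESeq2 and 0.00546% by edgeR. Dbp passed once, without Young Bleo 20 (-2.51, DESeq2 adjusted p = 0.0327), and without Young Bleo 17 its difference shrank to -1.31 (DESeq2 adjusted p = 0.498). For the other 8 genes the difference was 0.18 ± 0.39 for Arntl, -0.26 ± 0.31 for Clock, 0.065 ± 0.77 for Per1, 0.030 ± 0.91 for Per2, -1.14 ± 0.66 for Per3, -0.43 ± 0.38 for Cry1, 0.089 ± 0.36 for Cry2 and -0.27 ± 0.45 for Nr1d2 (SE), with DESeq2 adjusted p-values from 0.72 to 0.998. The response in young mice and the absence of a call in aged mice are thus not shown to differ after adjustment over all genes.

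Between the injured groups, Per1 was the gene that lay apart. Aged Bleo libraries were at 307, 880.0, 739.7 and 319 and Young Bleo libraries at 203, 219, 131 and 249, with no overlap. Per1 differed by 1.49 ± 0.54 on the log2 scale (SE; 95% interval 0.43 to 2.54; DESeq2 adjusted p = 0.18; edgeR adjusted p = 0.443), and it was called only when the compared groups alone entered the model (DESeq2 adjusted p = 0.0245). The log2 fold change of Dbp was -1.04 ± 0.49 (SE, DESeq2 adjusted p = 0.412), and without Young Bleo 17 it was -0.073. The remaining log2 fold changes between the injured groups were -0.30 ± 0.27 for Arntl, 0.10 ± 0.22 for Clock, 0.50 ± 0.63 for Per2, -0.57 ± 0.46 for Per3, -0.31 ± 0.26 for Cry1, -0.28 ± 0.25 for Cry2, -0.54 ± 0.30 for Nr1d1 and 0.027 ± 0.31 for Nr1d2 (SE), with DESeq2 adjusted p-values from 0.549 to 0.995. None of the 10 genes was called by DESeq2 or edgeR in this comparison, against 0.99% of all genes by DESeq2 and 0.0437% by edgeR. Groups that do not overlap with Aged Bleo higher were found in 2.8% of the genes tested. The unadjusted p was under 0.05 for Per1 and Dbp with DESeq2 and for Per1 with edgeR, and for 10.5% of all genes tested by DESeq2.

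Over all 4 groups, the 5 Young Sham libraries lay below each of the other 11 libraries for Dbp, with 786 as the highest Young Sham value and 886 as the lowest of the others. This held for 129 of the 18515 genes tested (0.697%). It held for none of the other 9 clock genes and for none of a list of 31 further clock genes. In a list of 8 immediate early genes, which respond to acute signals and to cell handling, it held for Fos, Fosb and Junb, and in a list of 9 glucocorticoid-induced genes for Mt1, a metallothionein.

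By group mean, Dbp was ordered Young Sham (550.5 ± 152), Aged Sham (1295 ± 653), Aged Bleo (1838 ± 838) and Young Bleo (3780.2 ± 3714), with SD and n = 5, 3, 4 and 4. Nr1d1 took the same order, at 2584 ± 773, 4722 ± 986, 4997 ± 1653 and 7268 ± 2480.0. For both genes, Young Sham was separate from its neighbour in this order, and the ranges of the other neighbours overlapped. Arntl was ordered Aged Sham (759 ± 258), Aged Bleo (902 ± 169), Young Sham (1061 ± 175) and Young Bleo (1110.4 ± 408), and all neighbours overlapped. All neighbours overlapped as well for Clock, Per1, Per2, Per3, Cry1, Cry2 and Nr1d2.

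Libraries of the same group also differed from each other in clock genes. In Young Bleo, Arntl ran 608, 1043, 1195 and 1596 in libraries 17, 18, 20 and 19, and Dbp ran in exactly the opposite order. Library 17 was the highest of the 4 for Per3, Cry1, Cry2, Nr1d1 and Dbp and the lowest for Arntl and Clock. Library 19 was the lowest for 7 of the 10 genes and the highest for Arntl.

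Aged Sham showed a similar spread. Library 14 was the highest of the 3 for Per1, Per2, Per3, Cry2, Nr1d2 and Dbp and the lowest for Arntl and Clock, while library 13 was the lowest for Per2, Per3, Cry1, Cry2, Nr1d1 and Nr1d2. Per2, the period gene with a central place in the repressor complex, was at 40.0 in library 13, 498 in library 14 and 147 in library 15. In Young Sham it was at 59.5, 205, 148, 195 and 220.0 in libraries 21 to 25, in Young Bleo at 217, 61.3, 65.0 and 226 in libraries 17 to 20, and in Aged Bleo at 172, 88.4, 272 and 273 in libraries 1, 2, 3 and 5. The range within Aged Sham was thus wider than the differences between group means, which ran from 142 in Young Bleo to 229 in Aged Sham.

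The cryptochromes, which with PER proteins silence the activator pair, varied less. Cry1 had its lowest library in Young Sham 25 (598) and its highest in Young Bleo 17 (1870.5), and Cry2 its lowest in Aged Sham 13 (727) and its highest, at 1896, also in Young Bleo 17. Group means of Cry1 lay between 1006 in Young Sham and 1329 in Young Bleo, and those of Cry2 between 879 in Aged Sham and 1416 in Young Bleo.

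The balance of an output gene and an activator in each library was described as log2 Dbp minus log2 Arntl. It was -0.65, -1.51, -1.11, -1.11 and -0.48 in Young Sham libraries 21 to 25, 3.94, 1.24, -0.03 and 0.57 in Young Bleo libraries 17 to 20, 0.61, 1.78 and -0.25 in Aged Sham libraries 13 to 15, and 1.66, 0.05, 1.05 and 1.00 in Aged Bleo libraries 1, 2, 3 and 5. Dbp thus stood below Arntl in all 5 Young Sham libraries, and at or above it in most of the others, with Aged Sham 15 and Young Bleo 19 slightly below. These counts are not scaled by gene length, so the sign depends on the lengths of the genes, whereas the difference between libraries does not.

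**Figure D3:**
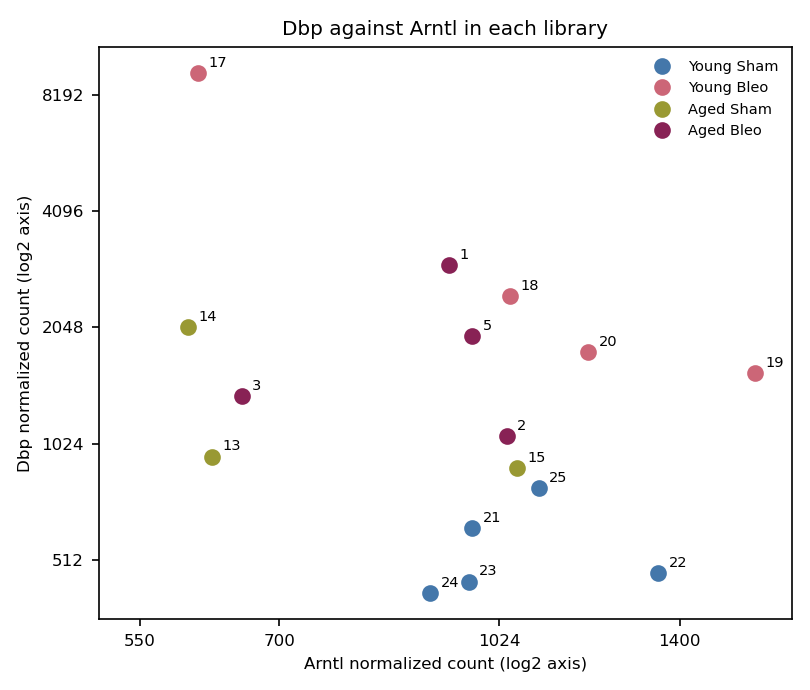
Normalized count of Dbp against that of Arntl in each of the 16 libraries (both axes log2), coloured by group and numbered by library. The Young Sham libraries lie lowest on the Dbp axis, between 421 and 786, and Young Bleo 17 combines the highest Dbp (9319.6) with an Arntl count of 608.

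Whether the other 9 genes varied with Arntl inside groups was asked with log2 values centred on each group's mean, over 16 libraries. Dbp had a Pearson r of -0.62 (two-sided permutation p = 0.0865) and a Spearman rho of -0.48 (permutation p = 0.125). Without the 2 libraries farthest in Arntl, Young Bleo 17 and 19, r was -0.18 (permutation p = 0.608). Without library 17 alone it was -0.25 (permutation p = 0.48) and without library 19 alone -0.54 (permutation p = 0.166), so the relation rests on library 17. Without Aged Bleo 3 it was -0.73 (permutation p = 0.0225). Within young libraries r was -0.81 (9 libraries) and within aged libraries -0.25 (7 libraries), with permutation p = 0.0772 and 0.574.

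Clock, the partner of Arntl, had an r of 0.48 with it (permutation p = 0.062) and a rho of 0.43 (permutation p = 0.104). Its r fell to 0.33 (permutation p = 0.277) without Young Bleo 17, and its p was under 0.05 without Young Sham 23, Young Sham 24, Young Bleo 19 or Aged Sham 13 (permutation p = 0.0497, 0.043, 0.0421 and 0.0359). For the other 7 genes r lay between -0.35 and -0.02, and with all libraries none of the 9 relations reached an unadjusted permutation p of 0.05. In a limma-trend model with Arntl as a covariate, no gene of 18323 passed after adjustment (0% were called), and 475 had an unadjusted p under 0.05. The 5 genes most like Arntl in this sense were Dnajc13 (r = 0.82), Serpinb9 (0.79), Pag1 (0.79), Slc38a4 (0.79) and Gpalpp1 (0.79), and the 5 least like it were Pcsk4 (-0.80), Rbfa (-0.78), Mtf1 (-0.78), Ckb (-0.77) and Atp6v1c1 (-0.74), among 13773 genes with a mean of at least 50. These are extremes of a ranking and are given as a description. Dbp ranked 57 from the lowest end of that order.

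The 31 further clock genes were read beside the 10, and 29 of them could be tested in each pairwise comparison. The list holds 8 output genes, among them Cdkn1a, Vwf, Wee1 and Usp2, and 8 kinases and ubiquitin ligases. None of these kinases and ligases was called in any comparison by DESeq2 or edgeR. In Young Bleo against Young Sham, 10 were called higher and 1 lower by DESeq2 (8 and 1 by edgeR), where 7.57% of all genes tested were called higher by DESeq2, and in Aged Bleo against Young Sham 8 were called higher and 0 lower (6 and 0), where 6.58% were. In Aged Sham against Young Sham 4 were called higher by DESeq2 and 0 by edgeR, where 2.24% of all genes were called higher by DESeq2. In Aged Bleo against Aged Sham 2 were called higher (1 by edgeR), where 3.4% of all genes were by DESeq2, and in Aged Bleo against Young Bleo 1 was (0 by edgeR), where 0.585% of all genes were. The median log2 fold change of the list in Young Bleo against Young Sham was 0.30, against 0.01 for all genes tested.

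The PAR bZIP relatives of Dbp that share its D-box, Tef and Hlf, moved in its direction. Tef was at 1244, 1377, 1204, 962 and 1812 in Young Sham libraries 21 to 25 and at 4986, 2322, 1379 and 2959 in Young Bleo libraries 17 to 20, with library 19 inside the Young Sham range. It rose by 1.14 ± 0.31 on the log2 scale in Young Bleo (SE, DESeq2 adjusted p = 0.0035). In Aged Bleo it rose by 1.00 ± 0.31 (SE, DESeq2 adjusted p = 0.0172; edgeR adjusted p = 0.0576), both against Young Sham. Without Young Bleo 17 the first was not called (0.75, DESeq2 adjusted p = 0.0663), and without Young Sham 24 or Aged Bleo 1 the second was not. Hlf was low, at 6.61 to 66.7 in Young Sham, 38.5 to 158 in Young Bleo, 51.0 to 180.3 in Aged Bleo and 99.9 to 263 in Aged Sham, and its 3 calls against Young Sham (log2 fold changes of 1.85, 2.29 and 1.88 for Young Bleo, Aged Sham and Aged Bleo) were not made by edgeR. Leaving out Young Bleo 17 or 20 ended the first, Aged Sham 14 the second, and Young Sham 22, Aged Bleo 1 or Aged Bleo 2 the third.

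Nfil3, the repressor that competes with these factors at D-boxes, was at 309, 278, 283, 166 and 224 in Young Sham libraries 21 to 25 and at 95.9, 187 and 114 in Aged Sham libraries 13 to 15. It was at 578, 501, 279 and 244 in Aged Bleo libraries 1, 2, 3 and 5. Nfil3 rose by 1.59 ± 0.40 on the log2 scale within aged mice (SE, DESeq2 adjusted p = 0.0037; edgeR adjusted p = 0.0607). In Young Bleo libraries 17 to 20 it was at 263, 689, 667 and 379, with library 17 inside the Young Sham range. In young mice it rose by 0.99 ± 0.35 (SE, DESeq2 adjusted p = 0.0324; edgeR adjusted p = 0.0705), and this call was lost without Young Sham 24, Young Sham 25, Young Bleo 18 or Young Bleo 19.

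Among the repressors that bind E-boxes or the activators, Bhlhe40 (DEC1) showed the largest counts. It was at 620.3, 1152, 1329, 1146 and 1355 in Young Sham libraries 21 to 25, at 7310.4, 6175, 2334 and 4337 in Young Bleo libraries 17 to 20, and at 14298, 10963, 3606 and 2484 in Aged Bleo libraries 1, 2, 3 and 5. Both bleomycin groups lay wholly above Young Sham. On the log2 scale Bhlhe40 rose by 2.17 ± 0.50 with injury in young mice and by 2.81 ± 0.50 in Aged Bleo against Young Sham (SE, DESeq2 adjusted p = 0.000365 and 2.17e-06), and both calls held without any 1 library and under all 8 other settings. Aged Sham, at 1295, 6733 and 2293, overlapped Young Sham.

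Bhlhe41 (DEC2) rose against Young Sham by 1.77 ± 0.48 in Young Bleo, 2.36 ± 0.48 in Aged Bleo and 2.03 ± 0.53 in Aged Sham (SE, log2 scale; DESeq2 adjusted p = 0.00382, 6.23e-05 and 0.00753). The Young Bleo call was lost without Young Bleo 17, and the Aged Sham call without Aged Sham 13 or 14 and with edgeR (adjusted p = 0.0779). Ciart (CHRONO) was at 412 to 587 in Young Sham and at 1542, 820.4, 831 and 681 in Young Bleo libraries 17 to 20. It rose by 0.94 ± 0.30 (SE, DESeq2 adjusted p = 0.0174; edgeR adjusted p = 0.0463), a call lost without Young Bleo 17 (DESeq2 adjusted p = 0.169).

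Of 7 further clock genes searched after their values were seen (Tef, Hlf, Ciart, Bhlhe40, Bhlhe41, Nfil3 and Usp2), Ciart, Tef and Bhlhe41 are shown in sequence because they rose and hold the E-box in the RefSeq window, as 3 matches in Ciart, 1 at each of the 2 starts of Tef and 1 in Bhlhe41. Hlf held a CRE, Nfil3 a RORE half-site and Usp2 none of the letters, and Bhlhe40 had no window. The Bhlhe41 stretch lies on the minus strand at chr6:145865556-145865585, the Ciart stretches on the minus strand at chr3:95882327-95882356, chr3:95882269-95882298 and chr3:95882255-95882284, and the Tef stretches on the plus strand at chr15:81802534-81802563 and chr15:81811264-81811293 (GRCm38.p6), with the E-box in capitals. The last 2 Ciart stretches overlap.
Ciart first: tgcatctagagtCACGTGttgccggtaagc
Ciart second: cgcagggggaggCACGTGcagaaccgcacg
Ciart last: cgtgcagaaccgCACGTGtctgggaggggg
Bhlhe41: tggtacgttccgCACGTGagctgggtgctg
Tef first start: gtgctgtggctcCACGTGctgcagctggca
Tef second start: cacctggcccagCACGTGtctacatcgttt

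Of the activating RORs, Rora rose by 0.53 ± 0.16 on the log2 scale in Young Bleo against Young Sham (SE, DESeq2 adjusted p = 0.00807), a call lost without Young Sham 22, Young Sham 23 or Young Bleo 17. Rorb, at 0 to 18.9 in Young Sham, was at 32.0, 187 and 59.4 in Aged Sham and at 175, 60.4, 53.4 and 64.1 in Aged Bleo, with log2 fold changes of 3.14 ± 0.86 and 3.07 ± 0.79 (SE, DESeq2 adjusted p = 0.0131 and 0.00266). The first was not called by edgeR (adjusted p = 0.119) or without Aged Sham 14, and the second not without Aged Bleo 1. Npas2, which can stand in for Clock, was at 40.9 to 113 in Young Sham, 1.10 to 83.5 in Young Bleo, 4.42 to 51.1 in Aged Bleo and 6.92 to 36.0 in Aged Sham, and it was not called in any comparison (chosen for mention after its values were seen).

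Timeless, a partner of PER proteins that also acts at replication forks, rose by 1.30 ± 0.23 in Young Bleo and, also against Young Sham, by 0.83 ± 0.23 in Aged Bleo, and by 1.16 ± 0.26 in Aged Bleo against Aged Sham (SE, log2 scale; DESeq2 adjusted p = 1.85e-06, 0.00609 and 0.00103). The second was lost without Aged Bleo 1. The summed count of the proliferation markers Mki67, Top2a and Ccnb1 was 271 to 473 in Young Sham, 787 to 2437 in Young Bleo, 429 to 1762 in Aged Bleo and 267 to 442 in Aged Sham, and its part in the Timeless result was not tested. The cell cycle kinase gene Wee1 rose by 1.07 ± 0.29 and 1.09 ± 0.29 in Young Bleo and Aged Bleo against Young Sham (SE, DESeq2 adjusted p = 0.00297 and 0.00307). The deubiquitinase gene Usp2 rose by 1.11 ± 0.31 in Young Bleo, also against Young Sham (SE, DESeq2 adjusted p = 0.00485).

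Cdkn1a, which encodes the cell cycle inhibitor p21, was at 24277 to 37923 in Young Sham, 7777 to 21588 in Young Bleo, 14389 to 46329.5 in Aged Bleo and 51899 to 78960.3 in Aged Sham. It fell by 1.07 ± 0.31 on the log2 scale in Young Bleo and rose by 1.08 ± 0.34 in Aged Sham against Young Sham (SE, DESeq2 adjusted p = 0.00653 and 0.0416), of which the second was called in 7 of the 16 fits that left out 1 library and not by edgeR. It was also higher in Aged Bleo than in Young Bleo (1.23 ± 0.33, SE, DESeq2 adjusted p = 0.0236; edgeR adjusted p = 0.246), a call kept in 11 of 16 such fits. Vwf, which encodes von Willebrand factor, rose by 0.83 ± 0.24 in Aged Bleo against Young Sham (SE, DESeq2 adjusted p = 0.00759).

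These calls of further clock genes differed in how often the 8 other settings (other tools, filters, size factors or samples in the model) made them. Those of Bhlhe40, of Tef, Timeless and Cdkn1a in Young Bleo, and of Timeless and Vwf in Aged Bleo, all against Young Sham, were made in all 8. Of the calls in Young Bleo against Young Sham, those of Ciart, Wee1 and Usp2 were made in 6, those of Rora (highest adjusted p = 0.0556 with the limma, edgeR and DESeq2 settings) and Bhlhe41 (0.145) in 5, and those of Hlf and Nfil3 in 3. Against Young Sham, the Aged Bleo calls of Bhlhe41, Wee1, Tef and Hlf were made in 7, 6, 3 and 3, and the Aged Sham calls of Bhlhe41, Hlf and Cdkn1a in 3, 3 and 2. Within aged mice Timeless was called in 7 and Nfil3 in 4, and Cdkn1a was called in 2 between the injured groups. Rorb had a value in 6 of the settings and was called in 3 for Aged Sham and 5 for Aged Bleo.

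**Figure D4:**
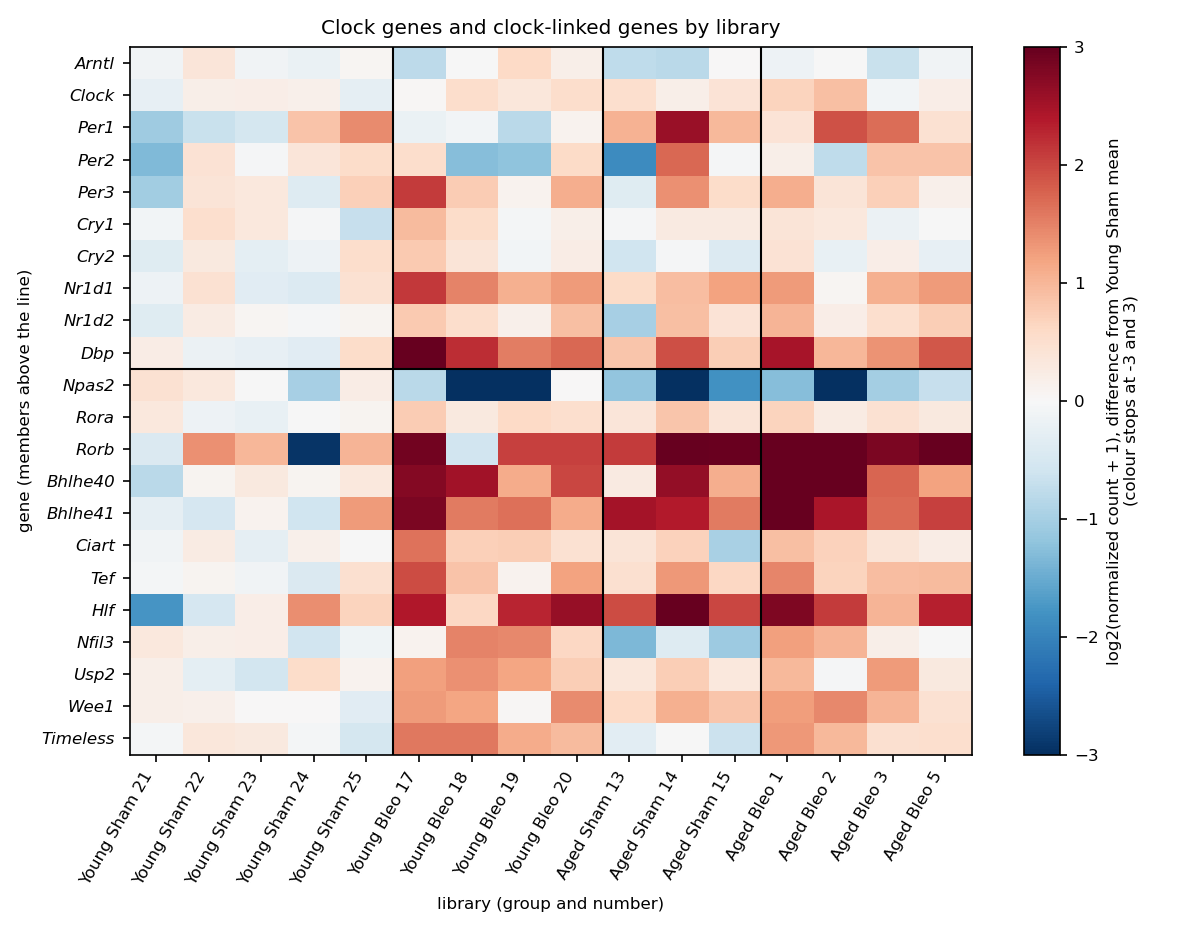
Difference of log2(normalized count + 1) from the Young Sham mean for the 10 clock genes (above the line) and 12 of the further clock genes, chosen with their values known, in each of the 16 libraries. Young Bleo 17 and Aged Bleo 1 are the reddest columns for Dbp and Tef, and Arntl is below the Young Sham mean in most libraries outside it.

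Values that moved with these genes were read from lists of other responses. Of 9 glucocorticoid-induced genes, 2 were called higher in Young Bleo, 3 in Aged Bleo and 3 in Aged Sham by DESeq2, each against Young Sham, and 2, 2 and 1 by edgeR. The shares of all genes called higher by DESeq2 were 7.57%, 6.58% and 2.24% in the same order. Fkbp5, which encodes a chaperone of the glucocorticoid receptor, had log2 fold changes of 2.94 ± 0.61 for the young injured mice and 2.60 ± 0.61 for the aged ones (SE, DESeq2 adjusted p = 6.69e-05 and 0.000723). In Aged Sham it was at 52.0, 802 and 64.0 in libraries 13 to 15, against 37.4 to 117 in Young Sham, and was not called (DESeq2 adjusted p = 0.109). Mt1 differed by 1.85 ± 0.48 in Young Bleo, 2.96 ± 0.48 in Aged Bleo and 1.75 ± 0.52 in Aged Sham on the log2 scale (SE, DESeq2 adjusted p = 0.00203, 1.26e-07 and 0.028), and edgeR did not call the last (adjusted p = 0.129). In Young Bleo 7 of the 9 had a log2 fold change above 0 (median 0.39), and Tsc22d3 (-0.45 ± 0.24) and Dusp1 (-0.23 ± 0.26; SE) lay below it, neither of them called. Against Young Sham, 9 of the 9 were above 0 in Aged Bleo (median 0.47) and in Aged Sham (median 1.08). The median of all genes tested was 0.02 in each of these comparisons. Of 8 immediate early genes, 3, 4 and 4 were called higher by DESeq2 and 3, 3 and 3 by edgeR in the same order, with Fos up by 1.89 ± 0.28, 2.38 ± 0.28 and 2.15 ± 0.30 on the log2 scale (SE, DESeq2 adjusted p = 3.3e-09, 1.1e-14 and 1.44e-09). In Young Bleo 4 of the 8 had a log2 fold change above 0 (median 0.090), and Jun (-0.83 ± 0.33) and Nr4a1 (-0.72 ± 0.49; SE) had the lowest, with DESeq2 adjusted p-values of 0.0658 and 0.366. Of the same 8, 6 were above 0 in Aged Bleo (median 0.94) and 7 in Aged Sham (median 0.55), again against Young Sham. Within all 4 groups, the library with the highest Dbp (Young Sham 25, Young Bleo 17, Aged Sham 14 and Aged Bleo 1) was also the one with the highest sum of macrophage markers, at 98.8, 13469, 126 and 7649. This was read from the values and was not planned, and the Sham values are small sums over 4 genes. The sum of leukocyte markers was highest in Young Sham 21 (5087), Young Bleo 18 (53479), Aged Sham 14 (22934.5) and Aged Bleo 1 (170806). The part of glucocorticoid signals, acute signals, macrophages and mesothelial cells in the clock gene results was not tested, and the hour of harvest cannot be told apart from the group where it differed between groups.

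Some members overlap neighbouring genes on the other strand, and neither of the library kits named by the sources marks strand. Dbp shares 539 of its 2993 exonic bases (18.0%) with Sphk2, Nr1d1 shares 263 of 3077 (8.55%) with Thra, and Cry2 shares 295 of 6320 (4.67%) with D930015M05Rik, by GENCODE M21. Sphk2 rose by 0.63 ± 0.19 in Young Bleo against Young Sham (SE, DESeq2 adjusted p = 0.00914), from 1349.9 to 1683 in Young Sham to 1917 to 3452 in Young Bleo, the highest being library 17. Reads of the shared part cannot be assigned to one of the 2 genes. Thra, at log2 fold changes of -0.05 ± 0.15 in Young Bleo, -0.20 ± 0.15 in Aged Bleo and -0.07 ± 0.17 in Aged Sham, all against Young Sham (SE), was not called beside Nr1d1.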

How the data were processed

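Sorted lung ECs were sequenced in 16 libraries. The authors aligned reads with STAR 2.5.2b to mm10 and obtained gene counts from Subread featureCounts in the MAPRSeq pipeline, and the deposited counts are whole numbers per gene. The deposited FPKM values scale the same counts by gene length and library total, by the authors. The annotation release and the strand setting are not given in the sources used here. The labels name a SMART-Seq cDNA kit with a Nextera library and the methods a TruSeq kit.

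DESeq2 1.42.0 (R 4.3.3) was fitted to the deposited counts of all genes and all 16 libraries with group as the only term (Wald test, unshrunken log2 fold changes, default Cook and independent filtering), with Benjamini-Hochberg adjustment over all genes tested. Calls needed an adjusted p of at most 0.05 and a log2 fold change of at least 0.5 in size. The fits were tested on simulated data. Alternatives were edgeR 4.0.16 (quasi-likelihood), limma 3.58.1 (voom on counts, trend on log2 FPKM with pseudocounts 0.1 and 1), edgeR without a filter, a filter of 10 counts in 3 libraries, other size factors, the compared groups alone, and each library left out. Correlations used 100000 permutations within groups. All 10 members are named in every comparison, and further clock genes where DESeq2 called them. The members and all lists were chosen with earlier results of these data known, and the neighbouring genes and the genes in the heat map after their values were seen. Motif letters were searched in RefSeq promoter windows (GRCm38.p6). Further clock genes that DESeq2 did not call are given as counts only, except Npas2.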

Additional observations from a re-analysis of the deposited data

Results flagged for a closer look

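The only clock gene value that stood apart from its group by the test for a single extreme sample (Dixon's 95% limit) was Dbp in Young Bleo library 17, at 9319.57 normalized counts. The other 3 Young Bleo libraries were at 1558, 1770.4 and 2473, and the gap to the nearest of them was 0.882 of the group's range, above the limit of 0.829 for 4 samples. The test was run on 30 sets of values, each 1 gene in 1 group of 4 or 5, and chance gives about 1 in 20. The same library had the lowest Arntl of its group (608), the highest Nr1d1 (10825), the highest Sphk2 (3452), a gene overlapping Dbp, and the highest sum of macrophage markers of all 16 libraries (13469). The part of these in the Dbp value was not tested. Without library 17, Dbp was still called after bleomycin in young mice, at a log2 fold change of 1.81.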

How the results depend on the processing

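No paired analysis was possible because the replicate numbers in the labels do not repeat between groups. Dbp and Nr1d1 in Young Bleo against Young Sham were called under every alternative. In Aged Bleo against Young Sham, 2 genes were called by DESeq2, but 1 with edgeR with or without its filter, 1 with limma on log2(FPKM + 0.1), 0 with limma voom and 0 on log2(FPKM + 1). With the compared groups alone, 2 genes were called in Aged Sham against Young Sham and 1 in Aged Bleo against Young Bleo. With log2(FPKM + 0.1), 1 relation with Arntl passed (Clock). Leaving out 1 library, the calls ranged from 0 to 1 in Aged Sham against Young Sham, 2 to 4 in Young Bleo against Young Sham (4 without Aged Sham 13), 0 to 3 in Aged Bleo against Young Sham (0 without Aged Bleo 1) and 0 to 1 in the difference of responses, and the relations with Arntl from 0 to 1. The cause was not tested.

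Log2 fold changes that turned direction belonged to genes that were not called, mostly near 0. On log2(FPKM + 0.1) these were, in Aged Sham against Young Sham, Per2 (-0.015) and Nr1d2 (-0.011), in Aged Bleo against Aged Sham, Per2 (0.22), Per3 (0.12) and Cry1 (0.084), in Aged Bleo against Young Bleo, Nr1d2 (-0.011), and in the difference of responses, Per1 (-0.063) and Nr1d2 (0.0002). On log2(FPKM + 1) these were Per2 (0.014), Per3 (0.022) and Cry1 (0.066) in Aged Bleo against Aged Sham, Nr1d2 (-0.0085) in Aged Bleo against Young Bleo and Per1 (-0.044) in the difference of responses. With limma voom these were Arntl in Young Bleo against Young Sham (-0.030), Per2 in Aged Bleo against Aged Sham (0.16) and Per1 in the difference of responses (-0.18).

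Leaving out 1 library, these log2 fold changes crossed 0. In Aged Sham against Young Sham, Per2 ran from -0.81 to 0.96, Cry1 from -0.013 to 0.27 and Nr1d2 from -0.13 to 0.67. In Young Bleo against Young Sham, Arntl ran from -0.16 to 0.27 and Per2 from -0.53 to 0.038. In Aged Bleo against Young Sham, Cry1 ran from -0.044 to 0.24 and Cry2 from -0.11 to 0.18. In Aged Bleo against Aged Sham, Clock ran from -0.078 to 0.25, Per1 from -0.78 to 0.26, Per2 from -0.68 to 1.09, Per3 from -0.39 to 0.46, Cry1 from -0.13 to 0.065, Nr1d1 from -0.062 to 0.29 and Nr1d2 from -0.036 to 0.77. In Aged Bleo against Young Bleo, Clock ran from -0.075 to 0.25 and Nr1d2 from -0.12 to 0.15. In the difference of responses, Arntl ran from -0.023 to 0.50, Per1 from -0.42 to 0.80, Per2 from -0.47 to 1.30, Cry2 from -0.062 to 0.26 and Nr1d2 from -0.65 to 0.15.

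Correlations with Arntl turned for Nr1d2 as Spearman's rho (0.056) and on log2(FPKM + 0.1) (0.11). Without the 2 libraries farthest in Arntl they turned for Per3 (0.12), Cry1 (0.32), Cry2 (0.016), Nr1d1 (0.27) and Nr1d2 (0.24), and within aged libraries for Cry1 (0.58), Nr1d1 (0.052) and Nr1d2 (0.15). Leaving out 1 library, r ran from -0.39 to 0.16 for Cry1, -0.34 to 0.17 for Nr1d1 and -0.31 to 0.17 for Nr1d2. Per2 had the fewest reads of the 10 genes, down to 20 counts in 1 library.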
